A study of Saccharomyces cerevisiae with 176 samples.

Results

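The 45 genes described here encode factors that assemble the large (60S) subunit of the ribosome in budding yeast, Saccharomyces cerevisiae. The rule for membership is a list of names of known 60S factors and sets no condition on measured values. The list was, however, chosen with earlier results of these data known. All 45 were found among the 6692 genes of the expression table, and all 45 passed the filter on low values in each fit below. They comprise 10 RNA helicases, 8 proteins of early nucleolar complexes, 3 genes grouped as methyltransferases and NIP7, 6 factors of the NOP7-ERB1-YTM1 complex and the internal spacer region, 3 GTPases, 5 Brix-domain proteins and partners, 4 placeholders including TIF6, 3 genes of late remodelling, and 3 of nuclear export and cytoplasmic recycling.

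The study asked how gene expression differs between euploid yeast, with complete chromosome sets, and aneuploid yeast, with single chromosomes in excess or missing, across growth conditions. RNA was sequenced in 176 libraries of 81 groups. Pooled aneuploid populations descend by sporulation from triploids and pooled euploid populations from diploids, judged by the 3N and 2N in the library codes. Both parents were S288C and carried the plasmid pRS315-STE2pr-spHIS5, and each population was collected after a Tsai or a dilution protocol (3 libraries per group). The labels give both protocols a single growth description, so what sets them apart is unknown here. Their companion was an exponentially growing S288C haploid (A2050, called WT exponential, 3 libraries). Named S288C aneuploid strains, from A1 to A38, grew exponentially in YEPD with 2% glucose at 25 degrees C in 6 experiments, exp1 to exp6. Of these, only exp1, exp2 and exp3 held the euploid strain, called 2N (4, 2 and 2 libraries). A chemostat limited for phosphate, run at 0.17 volumes per hour, held 2N and 9 aneuploid strains (2 libraries each). Their libraries carry 2 code numbers, whose meaning the labels do not give, with 2N, A20, A21 and A23 under one and A18, A22, A24, A34, A37 and A38 under the other. The haploid A2050 was also followed at 25 degrees C every 2 h from 0 to 26 h (2 libraries per time), as its culture aged from exponential growth. The last time is 26 h in the titles but a later hour in the library codes, and the title was followed. A W303 haploid (A2587) exposed to 500 mM NaCl for 40 min at 30 degrees C gave 3 libraries, with no untreated partner analysed here.

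Assembly of the 60S subunit starts in the nucleolus, where ribosomal proteins and assembly factors load onto the precursor of the 25S and 5.8S ribosomal RNAs, which the 5S RNA joins as a separate particle. DEAD-box helicases and GTPases refold the particle, placeholder proteins such as MRT4, RLP24 and TIF6 hold positions until their successors bind, and the ATPase MDN1 (also called REA1) strips factors off before export to the cytoplasm. In yeast these genes belong to the ribosome biogenesis regulon, whose messenger RNAs fall when growth slows and during the environmental stress response.

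Promoters of this regulon are known for 2 short elements, named PAC (GATGAG) and RRPE (AAAATTT). In the 300 bases before the start codon, on either strand, PAC was in 42 of the 45 promoters (93.3%), against 1263 of the 6663 promoters of the table that could be read. RRPE was in 43 (95.6%), against 1564 (23.5%) of all promoters. Both were in 40 (88.9%), against 471 (7.07%) of all, and each of the 45 promoters held at least 1. MAK5 and RRP1 had PAC alone, whereas NSA1, SPB1 and RIX1 had RRPE alone. Among the other lists, both elements were in 35 of 43 small subunit processome genes (81.4%), in 2 of 82 genes of large subunit ribosomal proteins (2.44%) and in 0 of 25 stress-induced genes. A match is a string of letters and no shown binding site. The stretches that hold the elements are shown for the helicase HAS1, the early factor NOC2, the scaffold protein NOP7 and the 5S particle factor RPF2, the first 4 in a fixed list of index genes to hold both. Each runs from base 200 to base 91 before the start codon, 5′ to 3′ on the strand of the gene, in the RefSeq R64 genome (sacCer3), with PAC and RRPE in capitals. RRPE read on both strands gives the run AAAATTTT, and tandem copies of PAC overlap by a base.
HAS1, chrXIII:851682-851791, minus strand: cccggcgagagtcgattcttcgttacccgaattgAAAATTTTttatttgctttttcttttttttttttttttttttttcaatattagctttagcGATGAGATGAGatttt
NOC2, chrXV:727312-727421, plus strand: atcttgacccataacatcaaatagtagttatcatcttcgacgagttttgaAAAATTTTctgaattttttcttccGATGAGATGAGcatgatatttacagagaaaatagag
NOP7, chrVII:695217-695326, plus strand: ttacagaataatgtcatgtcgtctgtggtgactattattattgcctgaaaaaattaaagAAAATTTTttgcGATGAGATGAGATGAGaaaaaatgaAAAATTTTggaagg
RPF2, chrXI:592631-592740, minus strand: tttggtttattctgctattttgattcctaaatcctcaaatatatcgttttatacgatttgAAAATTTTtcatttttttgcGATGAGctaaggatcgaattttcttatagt
In all 4 stretches the first RRPE lay farther from the start codon than PAC, at 166, 150, 141 and 140 bases before it in that order. The PAC copies followed at 106 and 101 bases in HAS1, at 126 and 121 in NOC2, at 129, 124 and 119 in NOP7, and at 120 in RPF2. NOP7 also had a second RRPE at 104 bases, and RPF2 a PAC at 57 bases, outside the stretch shown.

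The genes lie on 14 of the 16 nuclear chromosomes, with 6 on chromosome XIV and none on IX or X. Values are log2(TPM + 1), where TPM is the abundance of a transcript as a share of the library, corrected for gene length. The depth of each library is unknown, so no counting interval is given. The genes of the table took 87.05 to 93.82% of the TPM total in the population libraries, 85.07 to 98.94% in the chemostat and 94.95 to 99.63% in exp5 and exp6, which the labels give as poly(A) RNA. They took only 5.034 to 12.35% in the total RNA libraries of exp1 to exp4. All other libraries are labelled poly(A) RNA, also those of NaCl, at 14.01 to 20.52%, and of the time course, at 15.37 to 97.25%. Whether libraries of a group came from separate cultures is unstated, so the p-values measure only the spread between these libraries. Labels disagreed within themselves on the strain of replicate 2 of A18 in exp4 and of A24 in the chemostat. Both were kept under their titles, where the median expression of each chromosome correlated with the other library of the strain (r of 0.985 and 0.976).

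In WT exponential cells most of the assembly factors stood above the median gene, which was at 5.53 to 5.83 log2(TPM + 1) over the population libraries. They were mostly lower than the ribosomal protein genes given here. NOP7, which with ERB1 and YTM1 forms a scaffold of the early particle, had 363 TPM, the helicase DBP2 457 TPM, HAS1 241 TPM and the late ATPase MDN1 41.5 TPM (means of 3 libraries). RLP24 and MRT4 are relatives of ribosomal proteins, whose sites they hold in the precursor, and RLP7 is a relative of RPL7 that binds near the internal spacer. RLP7 had 268 TPM, against 2120 TPM for RPL7A and 437 TPM for RPL7B. RLP24 had 290 TPM, against 2255 TPM for RPL24A and 2132 TPM for RPL24B. MRT4, related to the stalk protein RPP0, had 253 TPM, against 3300.1 TPM for RPP0. The RNAs of RLP24 and MRT4 were thus well below those of the ribosomal proteins they precede, and that of RLP7 was nearer to RPL7B.

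The largest rise of the set was in the Tsai protocol. All 45 genes were higher in the aneuploid than in the euploid population, where 41.0% of the 5699 genes tested were higher and 75.7% were called in either direction (limma, Benjamini-Hochberg adjusted p under 0.05 over all genes tested). The mean of the 45 genes was 6.86 ± 0.05 log2(TPM + 1) in the Tsai aneuploid population and 5.33 ± 0.06 in the Tsai euploid population (SD, n = 3 each). The median difference was 1.51 on the log2 scale, or 1.47 above the median of all genes. Libraries of both groups did not overlap for any of the 45 genes, as was so in this direction for 42.2% of the 5380 genes of the whole table with a mean of at least 2. In these pooled samples, fewer cells that express a gene and less RNA of it per cell cannot be told apart.

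DBP2 (YNL112W), an RNA helicase, had 8.05, 7.99 and 7.99 in the Tsai aneuploid libraries, against 5.57, 5.43 and 5.54 in the Tsai euploid ones. Its difference of 2.50 ± 0.05 (SE) was the largest of the set (limma adjusted p = 9.09e-17). HAS1 (YMR290C), a helicase used in both subunits' pathways, had 7.68, 7.58 and 7.62 in aneuploid libraries, against 5.70, 5.47 and 5.76 in euploid libraries. ERB1 (YMR049C) had 6.70, 6.52 and 6.58 in aneuploid libraries, against 4.78, 4.51 and 4.66 in euploid libraries, and the helicase DRS1 rose by a like amount (1.95 ± 0.06 and 1.94 ± 0.05). At the other end were the helicase SPB4 and TIF6, the anti-association factor that stays on the particle into the cytoplasm. SPB4 (YFL002C) had 5.52, 5.42 and 5.57 in aneuploid libraries, against 5.06, 4.95 and 4.96 in euploid libraries. TIF6 (YPR016C) had 7.95, 7.94 and 7.87 in aneuploid libraries, against 7.36, 7.26 and 7.33 in euploid libraries, a difference of 0.60 ± 0.04 (limma adjusted p = 5.93e-10). Even these smallest rises left a gap between the groups.

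The rise was of similar size across the steps of assembly. The median difference was 1.61 for the 10 helicases, 1.35 for the 8 early nucleolar proteins, 1.59 for the 6 factors around NOP7, 1.62 for the 3 GTPases and 1.64 for the 5 Brix proteins and partners. It was 1.60 for the 4 placeholders, 1.36 for the 3 remodelling genes and 1.59 for the 3 export genes. Within the early complexes, NOC2 (YOR206W) had 6.74, 6.64 and 6.78 in aneuploid libraries, against 5.77, 5.73 and 5.79 in euploid libraries, the smallest difference of that group (0.95 ± 0.05). NOP7 differed by 1.56 ± 0.04, the GTPase NOG1 by 1.71 ± 0.07 and RPF2, which brings the 5S RNA into the particle, by 1.76 ± 0.05. The RNA methyltransferase NOP2 differed by 1.31 ± 0.05, MDN1 by 1.36 ± 0.08 and NMD3, the adaptor for nuclear export, by 1.48 ± 0.06.

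**Figure D1:**
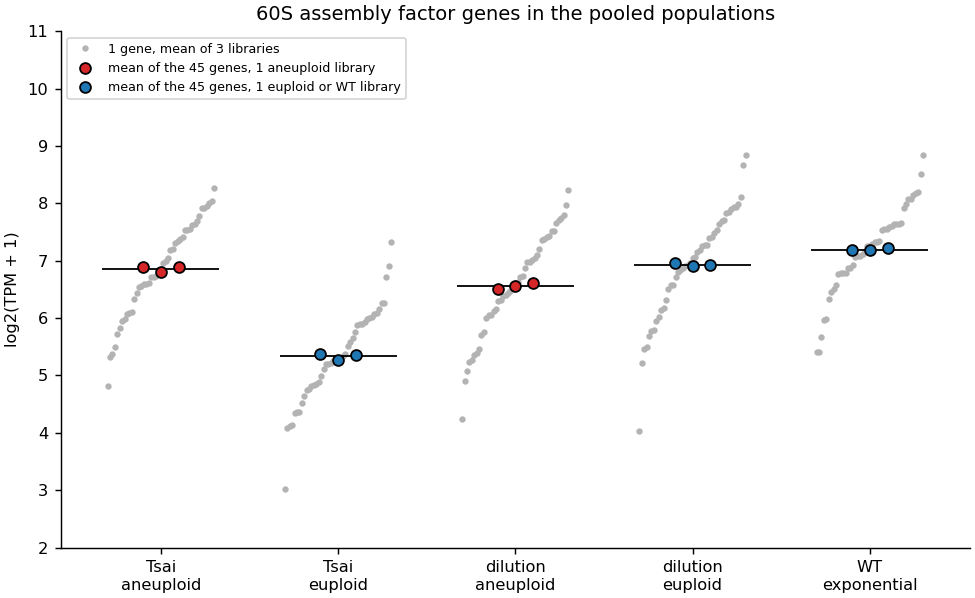
Level of the 45 genes in the pooled populations, on an axis of log2(TPM + 1). Grey points are single genes (mean of 3 libraries), outlined points the mean of all 45 in 1 library, and lines the group mean. The Tsai euploid libraries, at a mean of 5.33, stand below the Tsai aneuploid libraries at 6.86 and below the 3 other groups, at 6.56 to 7.19.

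After the dilution protocol the direction was opposite. In the aneuploid population 40 of the 45 genes were lower than in the euploid population, where 15.1% of all genes tested were lower, and 1, DBP7, was higher, where 60.9% of all genes were (75.9% either way). The mean of the 45 genes was 6.56 ± 0.05 in the dilution aneuploid population and 6.93 ± 0.03 in the dilution euploid population (SD, n = 3 each). The median difference was -0.37, while the median of all genes was 0.27, so that the set stood 0.64 below it. The fall was smaller than the Tsai rise, with 50% of the genes between -0.48 and -0.26.

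DBP2 was again at the extreme, with 7.96, 7.95 and 8.02 in dilution aneuploid libraries, against 8.86, 8.75 and 8.90 in dilution euploid libraries (-0.86 ± 0.05, limma adjusted p = 9.32e-11). NOG2, a GTPase of the late nuclear particle, had 4.81, 4.97 and 4.94 in aneuploid libraries, against 5.76, 5.74 and 5.56 in euploid libraries (-0.78 ± 0.06). MAK21, the partner of NOC2, fell by 0.76 on the log2 scale, and NOC2 by 0.68. RIX1, which works with MDN1 in late remodelling, fell by 0.70 on the log2 scale. HAS1 had 7.29, 7.41 and 7.38 in aneuploid libraries, against 7.71, 7.68 and 7.77 in euploid libraries. TIF6 and NMD3 fell by 0.45 and 0.46 on the log2 scale, and NOP7 by 0.43. DBP7, whose level was the lowest of the set, had 4.08, 4.27 and 4.35 in aneuploid libraries, against 4.06, 4.00 and 4.02 in euploid libraries, and its difference of 0.21 ± 0.09 became -0.04 when each library was centred on its median. NOP15, SPB1, MDN1 and REI1 did not pass, at -0.12, 0.10, -0.18 and 0.17.

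A direct test of the protocols' aneuploid effects (Tsai minus dilution) was positive for all 45 genes, where 24.7% of genes tested were positive and called and 75% were called either way. The median of the set was 1.91, against -0.26 for all genes. DBP2 differed most, at 3.36 ± 0.07, followed by SSF1, a Brix protein, at 2.39 ± 0.08, DRS1 at 2.38 ± 0.08 and ARX1, an export factor, at 2.34 ± 0.09. SPB4 differed least, at 0.84. SSF1 has a near-identical copy, SSF2, and reads may have been divided between them. The effects of the protocols have separate aneuploid and euploid libraries.

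**Figure D2:**
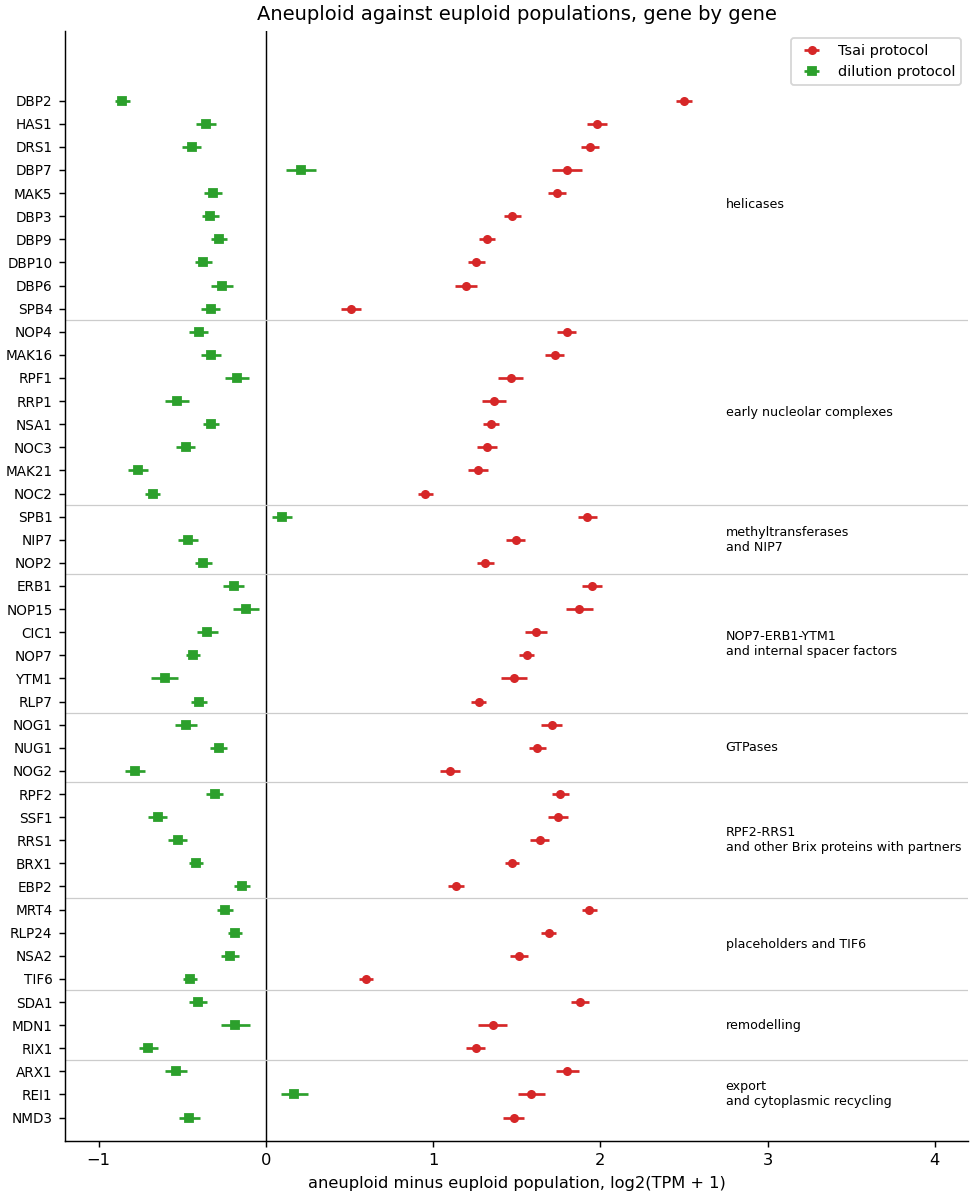
Difference between aneuploid and euploid populations for each of the 45 genes, in log2(TPM + 1), with 1 SE, grouped by role. In the Tsai protocol the differences run from 0.51 to 2.50, and in the dilution protocol from -0.86 to 0.21.

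Set against WT exponential cells, the Tsai euploid population was low throughout. All 45 genes were lower, where 40.6% of all genes tested were lower and 84.5% were called either way, with a median of -1.90. DBP2 had 5.57, 5.43 and 5.54 in the Tsai euploid population, against 8.80, 8.88 and 8.84 in WT exponential cells, a fall of 3.33 on the log2 scale. NOP4, an early RNA-binding factor, SSF1 and DBP7 fell by 2.52, 2.49 and 2.40 on the log2 scale. TIF6 fell least, by 0.83. The dilution euploid population lay closer to WT exponential cells, with 27 genes lower, where 42.3% of all genes tested were lower, and 2 higher, where 29% were (71.3% either way). The median of -0.16 lay close to that of all genes (-0.08). DBP7 had 4.06, 4.00 and 4.02 in the dilution euploid population, against 5.42, 5.43 and 5.40 in WT exponential cells (-1.39 ± 0.09). REI1, which recycles ARX1 in the cytoplasm, differed by -1.29 ± 0.08, NOG2 by -1.10 ± 0.06 and the methyltransferase SPB1 by -0.92 ± 0.06. NOP7 and NMD3 were higher, by 0.16 ± 0.04 and 0.30 ± 0.06. TIF6 and MDN1 did not pass, at -0.04 ± 0.04 and 0.06 ± 0.08. These comparisons share their euploid libraries with those above, and their WT libraries with each other.

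Other lists of ribosome and stress genes gave the surroundings. In the Tsai aneuploid against the Tsai euploid population, 37 of 37 further 60S factors were higher (median 1.35), led by CGR1 at 2.34 and SQT1 at 2.28. Of 43 genes of the small subunit processome, which builds the 40S precursor, 42 were higher (median 1.55). Of 82 genes of large subunit ribosomal proteins 79 were higher, by a median of only 0.54. Of 25 stress-induced genes 20 were lower and 3 higher, with GRE1 at -2.62 and the chaperone HSP26 at -2.20. In the dilution protocol 22 further 60S factors and 29 processome genes were lower in the aneuploid population, as were 72 ribosomal protein genes. There, 21 stress-induced genes were higher, HSP12 by 2.84. The mean of the 25 stress-induced genes was 8.21 ± 0.03 in Tsai aneuploid, 9.22 ± 0.07 in Tsai euploid, 7.76 ± 0.06 in dilution aneuploid, 7.04 ± 0.03 in dilution euploid and 5.09 ± 0.04 in WT exponential libraries (SD, n = 3 each). These levels moved against those of the assembly factors within each protocol, and their part in the result was not tested. Of 9 regulators of the regulon tested, 6 were higher and 2 lower in the Tsai aneuploid than in the Tsai euploid population (median 0.42), and 2 were higher and 6 lower in the Tsai euploid population than in WT exponential cells. Among them, the repressor TOD6 was higher in the Tsai aneuploid than in the Tsai euploid population, by 2.07, and lower in the Tsai euploid population than in WT exponential cells (-2.95).

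In the ageing culture the assembly factors held their level until 4 h and were far lower at 16 h. The mean of the 45 genes was 6.81 and 6.62 at 0 h, 6.75 and 6.75 at 4 h, 6.00 and 6.05 at 12 h, 5.43 and 5.00 at 14 h, and 2.91 and 2.45 at 16 h. At 8 to 12 h all 45 genes were below 0 to 4 h (median -0.57, all genes -0.11), but none passed, where 1.16% of all genes tested were called and 0.367% lower. Unadjusted, 12 of the 45 had p under 0.05. TPM was also rescaled to a common total over the table, which takes out the changing share of other transcripts. On that scale 14 genes were lower, and with each library centred on its median 20 were. The shares of all genes given above belong to the deposited scale and are no background for these 2 counts. SDA1, needed for release of the particle from the nucleolus, had 5.31 to 5.86 at 8 to 12 h, against 6.25 to 6.48 at 0 to 4 h, with no overlap (-0.78, limma adjusted p = 0.378, and 0.000487 when rescaled).

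At 14 h the set was lower again than at 10 and 12 h, by a median of -0.97 with all genes at 0.00. None passed as deposited, where 1.01% of all genes tested were called and 0.202% lower, although 25 had an unadjusted p under 0.05. Rescaled, 29 were lower, and centred, 36, but the shares of all genes given above again belong to the deposited scale. DBP2 had 5.78 and 5.04 at 14 h, against 7.72, 7.52, 7.05 and 6.83 at 10 and 12 h (-1.87 ± 0.52, limma adjusted p = 0.0572, and 0.000688 when rescaled). TIF6 differed by only -0.48 ± 0.47.

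Between 14 and 16 h the change was far larger. At 16 h 39 of the 45 genes were lower than at 14 h, where 13.6% of all genes tested were lower, with a median of -2.73 against 0.23 for all genes. NIP7, which binds the early and middle particles, had 2.51 and 1.87 at 16 h, against 6.93 and 6.28 at 14 h, a fall of 4.41 on the log2 scale (limma adjusted p = 1.1e-06). HAS1 had 1.74 and 0.86 at 16 h, against 5.62 and 5.21 at 14 h, and fell by 4.12. BRX1, a Brix protein, fell by 4.10 on the log2 scale and the helicase DBP3 by 3.77. The fall was not even across roles. The 3 genes of methyltransferases and NIP7 had a median of -3.31 and the GTPases -2.89, against -1.65 for the helicases and -1.74 for remodelling. A gene that was low at 14 h had less room to fall on this scale. Means at 14 h ran from 7.58 TPM for MDN1 to 139.56 TPM for TIF6, with NIP7 at 98.5 TPM. Starting level and fall did not go together in every gene. TIF6 was at 80.95 TPM at 16 h, whereas ERB1 went from 21.7 TPM at 14 h to 0.79 TPM at 16 h. The part of the starting level in these role medians was not tested. SPB4 had 4.51 and 3.67 at 16 h, against 4.61 and 3.88 at 14 h, and TIF6 6.59 and 6.08 at 16 h, against 7.49 and 6.66 at 14 h. Neither passed (-0.16 ± 0.54 and -0.74 ± 0.54), nor did DBP7, DBP10, NSA1 and REI1. TIF6 and SPB4 thus had among the smallest changes here as in the Tsai populations. Leaving out a library of either time gave 28 to 35 lower genes.

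After 16 h the direction depended on the scale. At 22 to 26 h 9 genes were lower than at 18 and 20 h as deposited, where 63.6% of all genes tested were lower and 64.5% called, among them MRT4 (-1.29 ± 0.36), RRS1, the partner of RPF2 (-1.26 ± 0.35), and NMD3 (-1.19 ± 0.38). All genes had a median of -0.93, so the set stood 0.47 above it. Rescaled, 15 genes were higher and 1 lower, and centred, 26 were higher and none lower. Here too the shares of all genes are those of the deposited scale. HAS1 was 0.58 ± 0.37 as deposited and 1.43 when rescaled (limma adjusted p = 0.00223). The share of the TPM total in the genes of the table was 15.37 to 61.14% at 22 to 26 h and 52.60 to 80.61% at 18 and 20 h. Relative to the median gene and rescaled, the mean of the set was 1.78 and 1.75 at 0 h, -2.50 and -2.57 at 16 h, and between -1.31 and -0.70 at 22 to 26 h, so the level at 0 h was not regained.

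**Figure D3:**
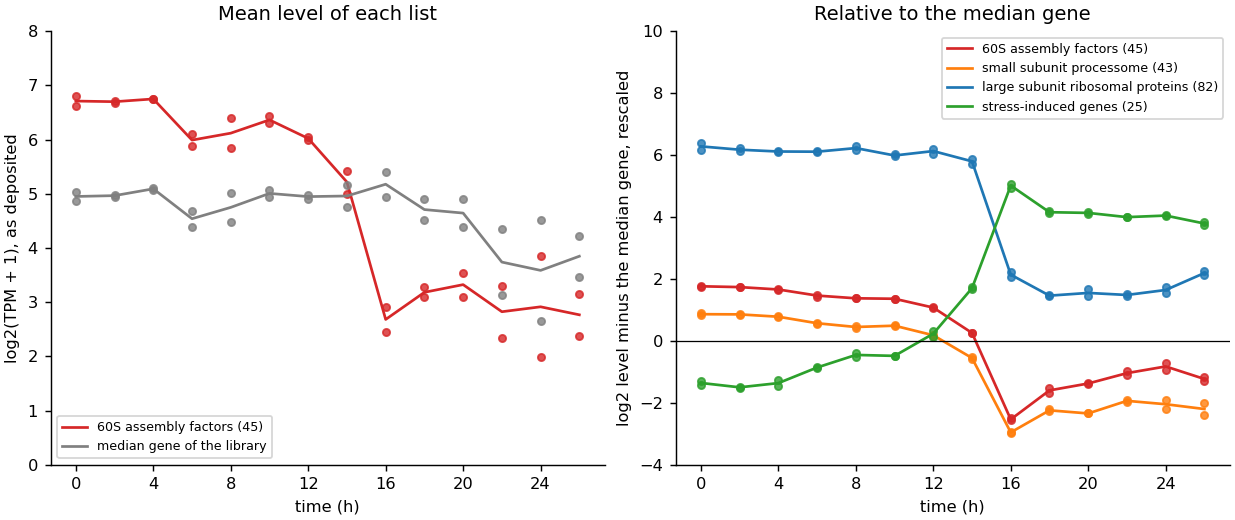
Time course of the haploid culture in hours, 1 point per library and a line through the means. The left panel gives log2(TPM + 1) as deposited, for the mean of the 45 genes and the median gene, and the right panel the log2 level of 4 lists minus the median gene after rescaling. The assembly factors cross below the median gene between 14 and 16 h, and the stress-induced list is clearly above it from 14 h.

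Around the same hours the other lists changed too. At 16 h against 14 h, 22 of 37 further 60S factors, 37 of 43 processome genes and 80 of 82 genes of large subunit ribosomal proteins were lower, the last by a median of -3.54. Stress-induced genes were higher at 8 to 12 h (11 of 25), at 14 h (14) and at 16 h (24, median 3.21). At 8 to 12 h and at 14 h 0 of the 82 ribosomal protein genes passed, with medians of -0.19 and -0.26, smaller than the -0.57 and -0.97 of the assembly factors.

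Aneuploid strains in exponential culture were compared with 2N in exp1 to exp3, as the mean of 10 strains with experiment as a term. Of the 45 genes 2 were lower and none higher, where 4.19% of the 3152 genes tested were lower, 10.0% higher and 14.2% called either way. The median was -0.11, against 0.05 for all genes. The share of the set called lower was thus close to that of all genes. SPB4 differed by -0.46 ± 0.13 (limma adjusted p = 0.0164) and NOG1 by -0.24 ± 0.08 (limma adjusted p = 0.0461). SPB4 had mean levels of 2.16, 2.00 and 2.19 in exp1, exp2 and exp3, near the filter of 2. With each chromosome centred, no gene of the set passed. In exp1, NOG1 had 3.61 to 4.37 over the aneuploid libraries, against 4.18 to 4.75 over the 4 of 2N, so the groups overlapped. SSF1 had the largest difference but missed the threshold (-0.48 ± 0.18, limma adjusted p = 0.0679), as did ARX1 (-0.39 ± 0.14, 0.0543). HAS1 did not differ beyond its error (0.06 ± 0.12), and its sign changed when libraries or chromosomes were centred and in exp3 alone. Within experiments, 3 genes passed in exp1 alone, 0 in exp2 alone and 0 in exp3 alone. The shares of all genes called in these fits are not given, so these counts describe the set alone. With strain as a random block no member passed, and only 1 gene of all did.

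Strain by strain the counts were uneven, and differences among the strains were not tested here. Against 2N, A21 had 13 of the 45 genes lower (all genes tested 11.1%) and 1 higher (20.6%), and A23 had 13 lower (9.23%) and 2 higher (20.1%). A20 had 2 lower (9.58%) and 4 higher (14.5%). A19 had 5 lower (6.82%), A35 had 2 (1.87%) and A22 had 1 (5.87%). The share of the set called lower was thus above that of all genes in A21, A23, A19 and A35 and below it in A20 and A22. None of the 45 was called in A1, A18, A25 or A27, where 0.381, 2.7, 1.05 and 0.73% of all genes tested were lower. Leaving out 1 library gave 8 to 14 called genes in A21 and 9 to 17 in A23. In A23, SSF1 was lowest relative to 2N (-1.02), with CIC1, an internal spacer factor, at -0.77 and ARX1 at -0.72, while MDN1 and RRS1 were higher, by 0.41 and 0.43. The strains were not alike in each experiment. The mean of the set was 2.94 in A23 and 3.49 in 2N in exp1, 3.37 in A23 and 3.50 in 2N in exp2, and 3.73 in A23 and 3.68 in 2N in exp3. Relative to the median gene and rescaled, A23 differed from 2N by -0.57, -0.04 and -0.50 in those experiments. A19, in contrast, was at 3.44 in exp1, close to 2N at 3.49, and at 3.05 in exp2, below 2N at 3.50. Of the other lists, 11 of 14 stress-induced genes tested were higher in the aneuploid strains, and 17 of 81 genes of large subunit ribosomal proteins, 5 of 42 processome genes and 2 of 32 further 60S factors were lower.

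In the phosphate-limited chemostat none of the 45 genes passed in the mean of 9 aneuploid strains against 2N, where 16.0% of the 5674 genes tested were called. At an unadjusted p under 0.05 there was 1. The median was -0.10, with all genes at -0.17, and its sign turned on centring each library (0.06) or chromosome (0.08) and without the second library of A18 (0.02). CIC1 had the largest difference (-0.71 ± 0.28, limma adjusted p = 0.108), and NOG2 was 0.45 ± 0.49. The 3 strains that share the library code of 2N had means of the set of 6.82 (A20), 6.46 (A21) and 6.57 (A23), against 6.69 in 2N. For the 6 other strains, the code and the difference from 2N cannot be told apart. In A18 the mean of the set was 7.02 in 1 library and 5.18 in the other, against 6.66 and 6.72 in 2N. A18 had 4 genes lower than 2N, a share close to that of all genes tested (9.34%). These 4 calls rest on the 2 unlike libraries of A18. In A38, NOP15 alone was called lower (-1.13 ± 0.34, limma adjusted p = 0.033), and the share of all genes called there is not given. No gene of the set was called in the other chemostat strains.

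**Figure D4:**
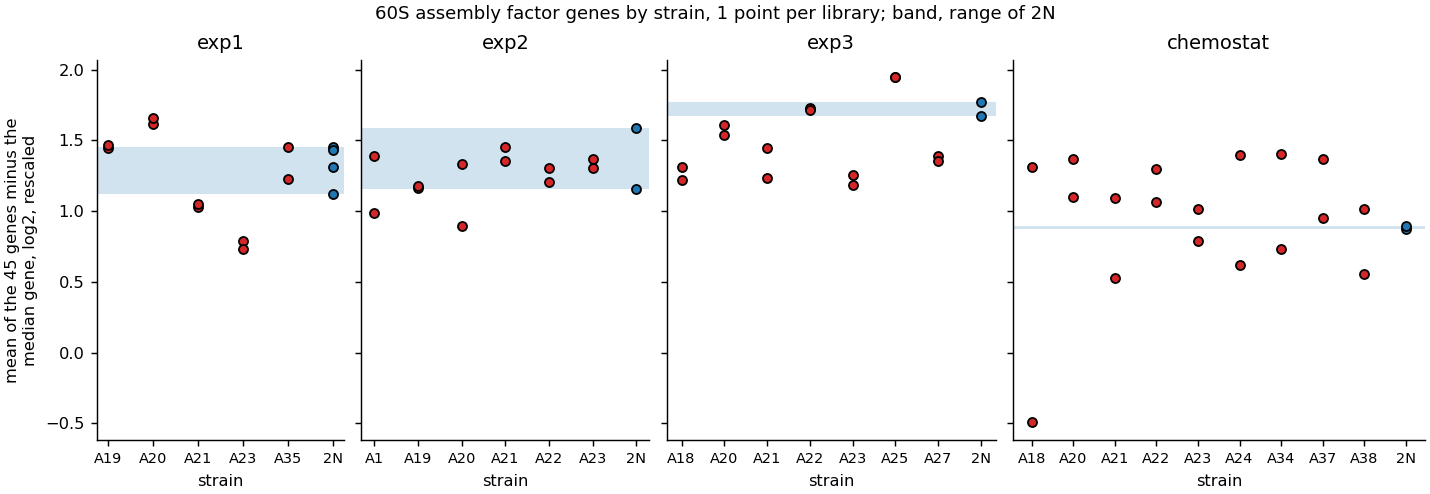
Mean of the 45 genes minus the median gene, log2 after rescaling, by strain, with 1 point per library and a band for the range of 2N. A23 and A21 lie below the band in exp1 and, with A18, A20 and A27, in exp3, while in exp2 single libraries of A1 and A20 lie clearly below it, and 1 library of chemostat A18 lies far below all others, at -0.49.

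The experiments without 2N show how single genes followed their chromosomes. Strains differed (limma F test over strains) in 13 of the 45 genes in exp4, where 28.2% of all genes tested were called, in 45 in exp5, where 98.4% were, and in 43 in exp6, where 94.7% were. NUG1 and RLP24 were the exceptions in exp6 (limma adjusted p = 0.0769 and 0.371). When each chromosome was centred in each library, 1 gene was called in exp4. The share of all genes called after this centring is not given, so the drop cannot be read as particular to the set.

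TIF6, on chromosome XVI, was in exp5 highest in A36 (8.72 and 8.75), A33 (8.68 and 8.65), A29 (8.50 and 8.78) and A30 (8.57 and 8.47). In these 4 strains, and in no other of exp5, the other genes of chromosome XVI had a median at least 0.25 above the mean over strains in each library. In the remaining strains TIF6 ranged from 7.61 in A26 to 8.26 in A1, so the groups did not overlap. HAS1, on chromosome XIII, was highest in A1 (7.96 and 7.93), where chromosome XIII was 0.41 above, and lowest in A38 (6.76 and 6.63), where it was 0.35 below. NMD3, on chromosome VIII, was highest in A34 (7.62 and 7.71) and A32 (7.52 and 7.56), where chromosome VIII was 0.34 and 0.35 above. RPF2, on chromosome XI, was lowest in A29 (7.05 and 7.09) and A33 (7.28 and 7.18), where chromosome XI was 0.35 and 0.39 below.

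Over all strains of exp5 there were 99 pairs of a gene and a strain on such raised chromosomes and 54 on chromosomes lowered by as much. The genes stood at a median of 0.45 on raised chromosomes (other genes 0.35) and -0.24 on lowered ones (other genes -0.29). In exp6 the 45 raised pairs had a median of 0.35 (other genes 0.39) and the 41 lowered pairs -0.33 (other genes -0.35). Of the raised pairs 99.0% in exp5 and all 45 in exp6 lay above the median of the 45 genes in their strain, and of the lowered pairs 0.0% did in either. In exp4 these shares were 91.7% of 48 raised and 2.5% of 40 lowered pairs. With chromosomes set against those of 2N, 89.7% of raised and 12.8% of lowered pairs lay above that median in exp1, 100% and 23.7% in exp2, 92.0% and 14.0% in exp3, and 81.2% and 5.0% in the chemostat. These pairs are a description, since pairs share strains and chromosomes. For 8 strains measured in both experiments, the correlation of a gene's strain means between exp5 and exp6 had a median of 0.78 over the 45 genes and 0.78 over all genes, from 0.21 for RLP24 to 0.96 for TIF6. As a set, the 45 genes were lowest in A38 in both experiments, relative to the median gene.

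**Figure D5:**
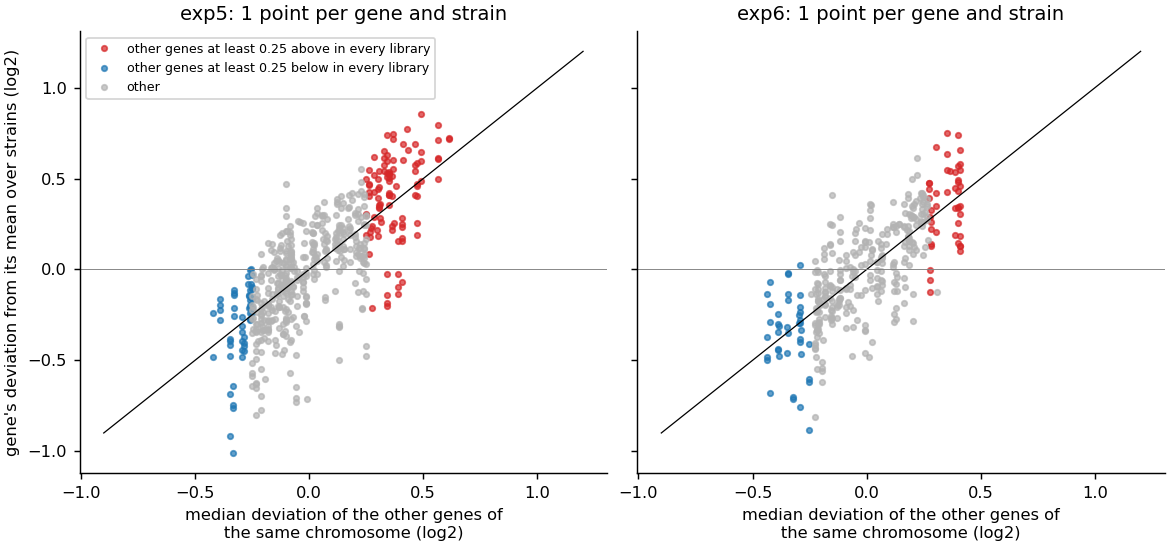
Deviation of each of the 45 genes from its mean over strains, less the strain's median over all genes, against the median deviation of the other genes of its chromosome, both log2, for each strain of exp5 and exp6. The line marks equality, and the points follow it from lowered chromosomes at the left to raised ones at the right.

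The order of the genes differed between sets of libraries. DBP2 ranked 45th from the lowest in exp1 to exp4 and in the chemostat, 44th in exp5, exp6 and the populations, 39th in the NaCl libraries and 31st in the time course. MDN1, with a coding sequence of 14733 bases by far the longest, ranked 34th of 45 in exp1 and 25th in exp3 and exp4 (total RNA) but lowest in exp5, exp6, the chemostat and the time course, and 18th in the NaCl libraries. For the strains A1, A35, A24 and A36, sequenced both ways, MDN1 was lower by 3.48, 3.42, 2.88 and 3.22 log2 units in poly(A) than in total RNA libraries after rescaling. EBP2, a partner of the early particle, was higher by 0.99, 1.21, 1.31 and 1.16. Across the 45 genes the shift went with gene length (Spearman's rho = -0.75), as it did across all genes (-0.75, 5380 genes). The order of different genes therefore holds only for the kind of library it was taken from. Within 1 kind, levels of different genes may still carry a shift with gene length, also those given above. The comparisons of groups above follow each gene within 1 kind of library.

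In the NaCl-treated W303 libraries the mean of the set was 2.42, 2.31 and 2.41. Relative to the median gene and rescaled it was 0.67, 0.68 and 0.74. NOG1 (3.64, 3.56 and 3.61) and TIF6 (3.44, 3.68 and 3.60) were the highest of the set and DBP6, a helicase, the lowest (1.57, 1.16 and 1.57). The 25 stress-induced genes lay 3.00 to 3.18 above the median gene. Strain background differs from that of all other groups. Temperature differs from that of exp1 to exp6, WT exponential cells and the time course, and none is listed for the chemostat and the pooled populations. No untreated partner is analysed here, so no comparison was made.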

How the data were processed

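RNA abundance was measured by sequencing, and the deposited table gives log2(TPM + 1) for 6692 genes in 176 libraries, per the labels and the file's own values. The authors, per the submitters' processing notes, used STAR 2.5.3a, RSEM 1.3.0 and the build sacCer3. Depth is unknown. The annotation file was used only for coordinates, equal to RefSeq R64 for all 45 genes.

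Each comparison was a linear model in limma 3.58.1 (R 4.3.3, variance trend, Benjamini-Hochberg over all genes tested), kept to genes whose mean reached 2 in the libraries fitted. The threshold was an adjusted p under 0.05. Fits held 44 libraries in batch culture (terms for strain and for experiment), 20 in the chemostat, 15 in the populations and 28 in the time course. The fits were tested on simulated data. "Rescaled" sets the TPM of each library to a common sum over the genes of the table.

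The members, lists and named genes (the 4 largest called differences and 9 index genes per comparison) were chosen with earlier results of these data known. ERB1, DRS1, SPB4, DBP7 and others beyond the index genes are shown as extremes, chosen after their values were seen. By the median, same-numbered libraries did not deviate together, so they were not paired. The median residual correlation was -0.0095 in batch culture and ranged from -0.0401 in the chemostat to 0.0217 in exp4. Single pairs varied more in the chemostat, from -0.58 to 0.48, with 33.3% over 0.1. Coordinates and tables used Python 3.11.15.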

Additional observations from a re-analysis of the deposited data

Results flagged for a closer look

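The aneuploid effect differed between the Tsai and the dilution protocol by a test of the difference itself for 45 of the 45 genes. Most of all genes tested were called in that test too, in either direction, with the shares given above. In log2 units, Tsai minus dilution, it was 3.36 for DBP2, 2.39 for SSF1, 2.38 for DRS1, 2.34 for ARX1, 2.34 for HAS1, 1.63 for NOC2, 1.05 for TIF6 and 0.84 for SPB4.

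Among the 4 libraries of 2N in exp1, 1 stood far from the others for 3 of 46 values tested. This is near the 1 in 20 that chance flags, and the library was not the same each time. DBP7 was 2.16 in replicate 1 and 2.90 to 3.03 in the others, DBP6 was 2.29 in replicate 2 and 2.97 to 3.06 in the others, and NOP4 was 2.95 in replicate 4 and 3.57 to 3.59 in the others.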

How the results depend on the processing

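In batch culture the count of 2 called genes became 1 with no filter, 1 with no variance trend, 1 with strain within experiment as a random block, 4 when rescaled, 8 when centred on the library median, and 0 with each chromosome centred, in exp2 alone, in exp3 alone and, chosen after seeing the data, with strain as a random block. The replicate block gave 0 there too, and 0 in the chemostat, and it left the other counts above within 1.5 times. Replicate numbers do not pair these libraries. The time course counts of 0 at 8 to 12 h became 14 rescaled, 20 centred and 12 rescaled and centred, and those of 0 at 14 h 29, 36 and 31, with 1 at a filter of 3. At 22 to 26 h, 9 became 16, 26 and 18 (15, 26 and 18 of them higher), and in exp4 13 became 1 with each chromosome centred. Rescaled-and-centred fits were chosen after seeing the data. Shares of all genes called under these settings are not given in this section, so the counts describe the set alone. Apart from what each setting does to the scale, the cause was not tested. Leaving out 1 library gave 0 to 4 genes in batch culture (1 in 20 of 44 runs, 0 without 2N exp2 replicate 2, 4 without 2N exp1 replicate 2), 0 to 1 in the chemostat, 28 to 35 at 16 h, 4 to 29 at 22 to 26 h (4 without 18 h or 22 h replicate 2, 5 without 20 h replicate 2 or 26 h replicate 1, 16 without 22 h replicate 1, 29 without 24 h replicate 2), 9 to 17 in exp4, 41 to 44 in exp6, 39 to 41 for the dilution populations, 24 to 27 for dilution euploid against WT, and 45 in every run for the 3 Tsai results and exp5. Signs changed for DBP7 (dilution, -0.041 centred), for HAS1 in batch culture (-0.016 centred, -0.11 chromosome centred, -0.015 in exp3 alone), and, on leaving out a library, for MDN1 in dilution euploid against WT (-0.022 to 0.15) and for SPB4 at 16 h (-0.57 to 0.26). The time course has 2 libraries per time, and unknown depth limits what can be said of low values.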
